A study of Arabidopsis thaliana with 9 samples.

Results

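The genes AT1G09750 and AT1G62500, whose activity is used to mark the cortex of the Arabidopsis root, were followed over 9 Affymetrix ATH1 arrays. They were chosen by name: the array annotation gives each gene 1 probe set, so they are 2 of the 13286 genes with a probe set of their own and 2 of 22746 plant probe sets, and both were among the 13647 that passed the filter on low signal. The root cortex is the ground tissue layer between the epidermis and the endodermis, and both layers of ground tissue arise from the same initial cells under the transcription factors SHORT-ROOT and SCARECROW. SCL3, a GRAS-family regulator related to SCARECROW, acts in gibberellin signalling and in the division and elongation of the ground tissue. From general background, not from the annotation used here, AT1G09750 codes for a member of the aspartyl protease family and AT1G62500 for a proline-rich protein with a domain like that of lipid-transfer proteins. The promoters of both genes are used to drive reporters in the cortex.

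Each array held total RNA of whole roots, 7 days after germination, from 1 of 3 genotypes. These were SCL3 OE, a line that overexpresses SCL3, the mutant scl3 with the loss-of-function allele scl3-1, and wild-type Col-0, with 3 arrays each and Col-0 as the ecotype of all. The plants grew on MS medium at 22 °C with 16 h of light and 8 h of dark, without further treatment in the labels. Biological triplicates are stated in the series text, while the labels give neither the promoter of SCL3 OE nor how many lines were used. The annotation used here names no probe set for SCL3, and its transcript was not used to check the genotypes.

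The replicate 3 arrays of Col-0 and scl3 stood apart from the other 7 arrays. The arrays were clustered by the 45 probe sets of control RNAs spiked into the samples, and the tree was cut into 3 sets. That number was set and not found, so only the membership comes from the data. The sets were SCL3 OE (3 arrays), replicate 3 of Col-0 and scl3 (2 arrays), and replicates 1 and 2 of Col-0 and scl3 (4 arrays). Over all plant probe sets the replicate 3 arrays correlated with the other arrays at 0.818 to 0.833, and arrays of one set with each other at 0.943 to 0.969. SCL3 OE correlated with replicates 1 and 2 of Col-0 and scl3 at 0.932 to 0.944, close to the values within a set. The labelled tissue is whole root, yet the 8 photosynthesis genes that could be read out of 48 listed had a summed signal of 110928 and 112427 on the replicate 3 arrays. Their sum was 4362 to 4866 in SCL3 OE and 2280 to 2617 on replicates 1 and 2 of Col-0 and scl3, and no listed gene was at 0 on any array. The results below are therefore given with all arrays, with a term for replicate 3 in the fit, and with the replicate 3 arrays left out.

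AT1G09750 had a signal of 430, 315 and 311 in SCL3 OE, of 5009.0 in scl3 replicate 3 and 125 and 208 in scl3 replicates 1 and 2, and of 5439.7 in Col-0 replicate 3 and 137 and 173 in Col-0 replicates 1 and 2. The arrays thus fell into 3 levels that did not overlap, with replicate 3 highest, SCL3 OE next and replicates 1 and 2 of both other genotypes lowest. How many of all probe sets have levels without overlap was not counted, here or for AT1G62500. The signal is the deposited intensity of the probe set on a linear scale, with each array scaled to the same trimmed mean. Within its own array, AT1G09750 stood at the 97.1 and 97.4 percentile of plant probe sets on the replicate 3 arrays, at the 60.7 to 68.3 percentile in SCL3 OE, and at the 42.3 to 52.2 percentile on replicates 1 and 2.

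AT1G62500 had a signal of 87.0, 69.8 and 79.4 in SCL3 OE, of 992 in scl3 replicate 3 and 163 and 116 in scl3 replicates 1 and 2, and of 1361.6 in Col-0 replicate 3 and 143 and 183 in Col-0 replicates 1 and 2. Here too the 3 levels did not overlap, but the order differed, with replicate 3 highest, replicates 1 and 2 in the middle and SCL3 OE lowest. The replicate 3 arrays placed it at the 84.8 and 88.6 percentile, SCL3 OE at 35.9 to 38.1, and replicates 1 and 2 at 41.7 to 50.0. In SCL3 OE all 3 signals lay below 99.3, the mean signal that the filter asked for, and the files give no detection calls. On replicates 1 and 2 both cortex genes therefore lay near the middle of all probe sets.

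**Figure D1:**
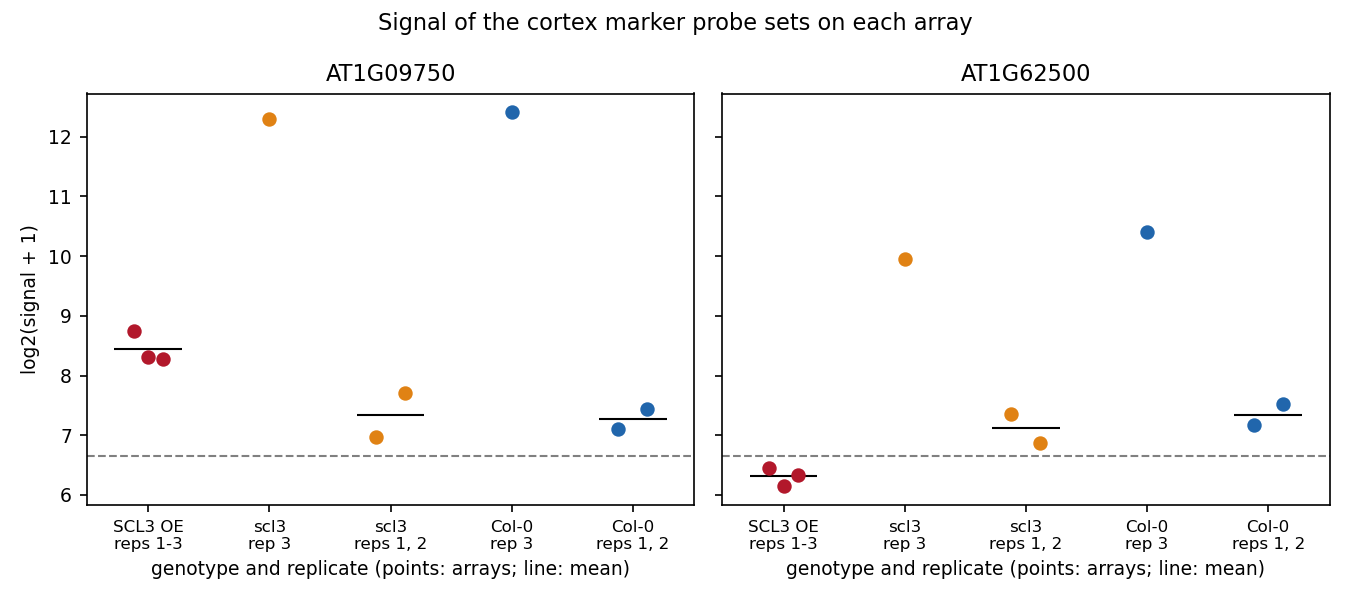
Signal of AT1G09750 (left) and AT1G62500 (right) on each array, as log2(signal + 1) on the y axis, by genotype and replicate on the x axis. Points are arrays, short lines are means of 2 or more arrays, and the dashed line is the filter at 6.65. Both genes are highest on the replicate 3 arrays, while SCL3 OE lies above replicates 1 and 2 for AT1G09750 and below them for AT1G62500.

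Both cortex genes rose on the replicate 3 arrays. On the log2(signal + 1) scale, AT1G09750 averaged 12.35 on replicate 3 (n = 2) and 7.31 ± 0.33 on replicates 1 and 2 (SD, n = 4), over Col-0 and scl3. The difference was 5.04 ± 0.20 (SE), or 32.9-fold with a 95% interval of 24.3 to 44.7, at an adjusted p of 1.27e-09 in limma with a term for replicate 3. AT1G62500 averaged 10.18 on replicate 3 (n = 2) and 7.23 ± 0.28 on replicates 1 and 2 (SD, n = 4). Its difference was 2.95 ± 0.18 (SE), or 7.75-fold with a 95% interval of 5.88 to 10.2 (adjusted p = 4.37e-08, limma).

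These calls stand against a wide background. In that fit 76.8% of the tested probe sets differed between replicate 3 and replicates 1 and 2, with 22% higher and 54.7% lower on replicate 3. By size, AT1G09750 was number 114 from the top of 13647 and AT1G62500 number 430. With 2 arrays against 4, the smallest p of an exact permutation test is 0.0667, which is the value for both genes. The photosynthesis transcripts moved with both genes on these arrays, and their part in the rise was not tested. In bulk extracts, more cells of a type and more RNA per cell cannot be told apart either.

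The rise was seen in both genotypes, and no difference between them was called. For AT1G09750, replicate 3 lay 4.95 above the mean of replicates 1 and 2 in scl3 and 5.13 above it in Col-0, on the log2 scale. AT1G62500 lay 2.84 higher in scl3 and 3.07 higher in Col-0. The difference between scl3 and Col-0 in this rise was -0.18 (95% interval -1.07 to 0.70, adjusted p = 0.867, limma) for AT1G09750 and -0.23 (-1.02 to 0.56, adjusted p = 0.805, limma) for AT1G62500. For it 1.74% of all tested probe sets were called, and each genotype has 1 replicate 3 array.

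Against replicate 3 of Col-0 and scl3, both genes were lower in SCL3 OE. AT1G09750 averaged 8.45 ± 0.27 in SCL3 OE (SD, n = 3) and 12.35 on replicate 3 (n = 2), a difference of -3.90 ± 0.21 (SE), 14.97-fold lower (adjusted p = 1.86e-08, limma). AT1G62500 averaged 6.31 ± 0.16 in SCL3 OE (SD, n = 3) and 10.18 on replicate 3 (n = 2), a difference of -3.87 ± 0.19 (SE), 14.6-fold lower (adjusted p = 8.85e-09, limma). Of all tested probe sets, 20.8% were lower in SCL3 OE in this comparison.

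Against replicates 1 and 2 of Col-0 and scl3, the cortex genes moved apart in SCL3 OE. AT1G09750 rose, at 8.45 ± 0.27 in SCL3 OE (SD, n = 3) and 7.31 ± 0.33 on replicates 1 and 2 (SD, n = 4), a log2 difference of 1.14 ± 0.18 (SE) or 2.20-fold (95% interval 1.68 to 2.88). Its adjusted p was 0.000384 in limma with the term for replicate 3. AT1G62500 fell, at 6.31 ± 0.16 in SCL3 OE (SD, n = 3) and 7.23 ± 0.28 on replicates 1 and 2 (SD, n = 4). Its log2 difference was -0.92 ± 0.16 (SE), 1.89-fold lower (adjusted p = 0.000838, limma).

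For both genes all 3 SCL3 OE arrays lay outside the range of the 4 arrays they were set against, and the share of all probe sets that did so was not counted. The exact 2-sided permutation p was 0.0286 for each, the smallest that 3 against 4 can give. The background was again wide, with 41.6% of tested probe sets called, 21.8% higher and 19.8% lower in SCL3 OE. AT1G09750 was number 288 from the top and AT1G62500 number 629 from the bottom of 13647. Leaving the replicate 3 arrays out of the fit, an alternative chosen after seeing the data, cannot move these differences, and it gave an adjusted p of 0.000447 for AT1G09750 and 0.00162 for AT1G62500 (limma). With the clustering cut at 3 sets, the SCL3 OE arrays form an array set of their own. In every comparison with SCL3 OE the genotype cannot be told apart from the array set. The photosynthesis list moved with AT1G09750 here, with 6 of 8 tested genes higher and 0 lower in SCL3 OE, and its part in these differences was not tested.

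**Figure D2:**
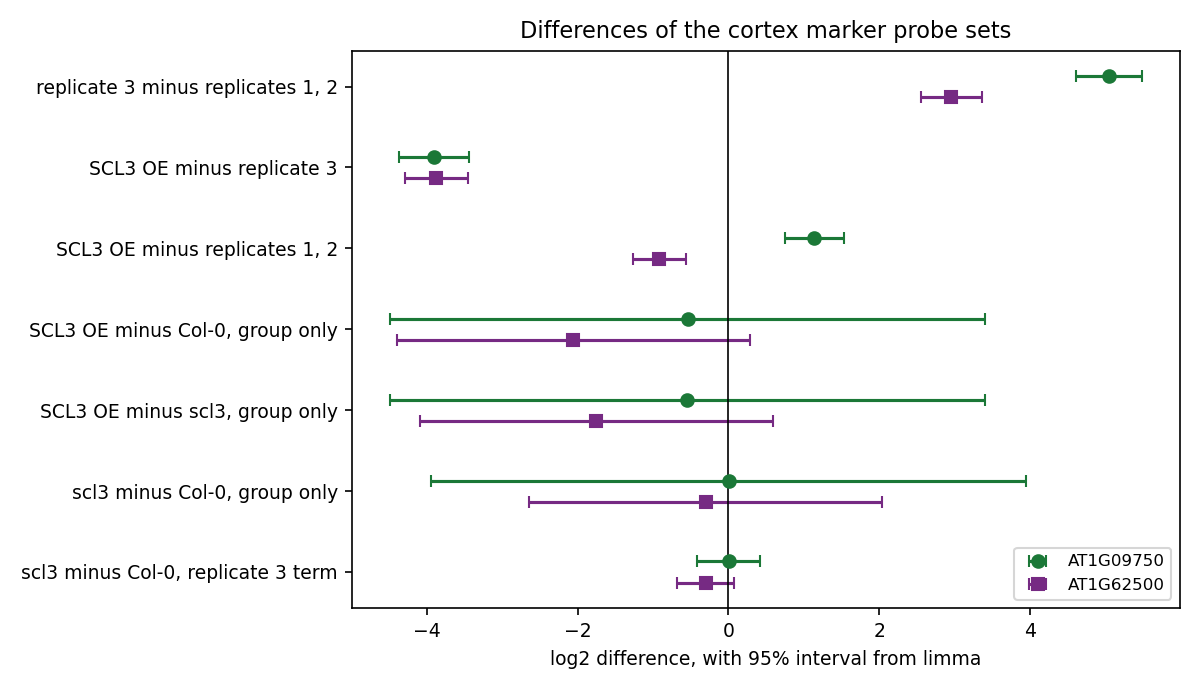
Log2 differences (x axis) of AT1G09750 (circles) and AT1G62500 (squares) in each comparison (y axis), with 95% intervals from limma as bars; the top 3 comparisons and the lowest come from the fit with a term for replicate 3. The genes lie on the same side of 0 in the comparisons with replicate 3 and on opposite sides for SCL3 OE against replicates 1 and 2, at 1.14 and -0.92, and the intervals of the fits with group only all cross 0.

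With genotype as the only term and all 9 arrays, neither gene passed in any comparison. In SCL3 OE against Col-0, the mean of AT1G09750 was 8.45 ± 0.27 for SCL3 OE and 8.99 ± 2.97 for Col-0 (SD, n = 3 each), a log2 difference of -0.54 with a 95% interval of -4.48 to 3.40 (adjusted p = 0.926, limma). The mean of AT1G62500 was 6.31 ± 0.16 for SCL3 OE and 8.37 ± 1.78 for Col-0 (SD, n = 3 each), a difference of -2.05 (-4.39 to 0.28, adjusted p = 0.457, limma). All 3 SCL3 OE arrays lay below all 3 Col-0 arrays for AT1G62500 (exact permutation p = 0.1, the smallest that 3 against 3 can give). The share of all probe sets separated in this way was not counted. For AT1G09750 the groups overlapped (exact permutation p = 1), and without Col-0 replicate 3 its difference turned to 1.17 (adjusted p = 0.813, limma). In this fit 1.2% of tested probe sets were called between SCL3 OE and Col-0.

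A term for replicate 3 in the fit brought both genes past the threshold. SCL3 OE minus Col-0 was then 1.14 ± 0.20 for AT1G09750 (SE, adjusted p = 0.00123, limma), and so of the opposite sign, and -1.07 ± 0.18 for AT1G62500 (SE, adjusted p = 0.000983, limma). The fit called 33.6% of all tested probe sets in that comparison. With the array set as a random block in place of that term, neither gene was called, at -1.35 for AT1G09750 and -2.53 for AT1G62500 (adjusted p = 1 each, limma).

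Against scl3 the pattern was the same. AT1G09750 averaged 8.45 ± 0.27 in SCL3 OE and 8.99 ± 2.88 in scl3 (SD, n = 3 each), a difference of -0.54 (-4.49 to 3.40, adjusted p = 0.927, limma), which turned to 1.11 without scl3 replicate 3 (adjusted p = 0.829, limma). AT1G62500 averaged 6.31 ± 0.16 in SCL3 OE and 8.06 ± 1.66 in scl3 (SD, n = 3 each), a difference of -1.75 (-4.09 to 0.59, adjusted p = 0.495, limma), with all 3 SCL3 OE arrays below all 3 scl3 arrays. The fit called 1.91% of tested probe sets, and the share of probe sets separated in that way was not counted. With the term for replicate 3, AT1G09750 had 1.14 ± 0.20 (SE, adjusted p = 0.00104, limma) and AT1G62500 -0.77 ± 0.18 (SE, adjusted p = 0.00638, limma), among 39% of probe sets called. The comparisons of SCL3 OE with scl3 and with Col-0 use the same SCL3 OE arrays.

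Between scl3 and Col-0 no difference was called for either gene. AT1G09750 averaged 8.99 ± 2.88 in scl3 and 8.99 ± 2.97 in Col-0 (SD, n = 3 each), and AT1G62500 averaged 8.06 ± 1.66 in scl3 and 8.37 ± 1.78 in Col-0 (SD, n = 3 each). With group only, the 95% intervals of the fold ran from 0.0653 to 15.4 for AT1G09750 and from 0.160 to 4.09 for AT1G62500 (adjusted p = 1 each, limma). With the term for replicate 3 they narrowed to 0.752 to 1.34 for AT1G09750 (adjusted p = 0.996, limma) and 0.624 to 1.05 for AT1G62500 (adjusted p = 0.671, limma). Either fit called 0.00733% of tested probe sets, which is 1 probe set. For AT1G62500, scl3 was higher than Col-0 on replicate 1, with a signal of 163 against 143, and lower on replicate 2, with 116 against 183, and on replicate 3, with 992 against 1361.6.

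The ratio of the 2 probe sets within an array does not depend on how the array was scaled, and its size has no meaning of its own because probe sets differ in brightness. As log2 signal of AT1G09750 minus that of AT1G62500, it was 2.29, 2.16 and 1.95 in SCL3 OE, 2.33 and 2.00 on replicate 3 of scl3 and Col-0, and -0.38, 0.84, -0.06 and -0.08 on their replicates 1 and 2. SCL3 OE and replicate 3 thus shared 1 range, and replicates 1 and 2 lay wholly below it. The mean was 2.13 ± 0.17 in SCL3 OE (SD, n = 3) and 0.08 ± 0.53 on replicates 1 and 2 (SD, n = 4), a difference of 2.06, which is the sum of the 2 opposite differences given above and so no further test of them. Against replicate 3, at a mean of 2.17 (n = 2), the difference was -0.03 (exact permutation p = 0.8, smallest possible 0.1). Among replicates 1 and 2, scl3 replicate 2 was the highest at 0.84.

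**Figure D3:**
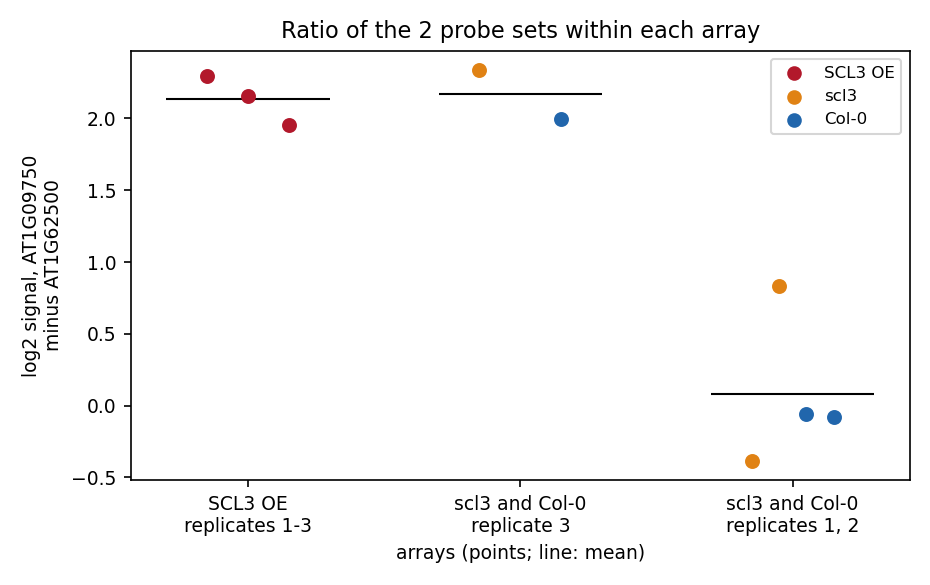
Log2 signal of AT1G09750 minus that of AT1G62500 within each array (y axis), for SCL3 OE, replicate 3 and replicates 1 and 2 (x axis). Points are arrays coloured by genotype and lines are means; the SCL3 OE and replicate 3 arrays lie at 1.95 to 2.33 and the other 4 at -0.38 to 0.84.

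Of 7 genes listed as cortex genes, 5 were named on the array and 4 of them tested, AT1G09750 and AT1G62500 included. On replicate 3 the 4 tested genes rose against replicates 1 and 2, where 22% of all tested probe sets did, with a median of 2.83 against -0.42 over all tested probe sets. The other named gene, AT5G02000, was not tested because its mean log2 signal equalled the filter value, and it went the other way, at 4.83 and 6.66 on replicate 3 and 6.69 to 6.75 on replicates 1 and 2. AT1G62510, the neighbour of AT1G62500 in RefSeq's TAIR10.1 gene table, rose by 2.70 ± 0.16 (SE, adjusted p = 3.97e-08, limma). AT3G21670, known from general background as NPF6.4 of a family of nitrate and peptide transporters, rose by 1.66 ± 0.25 (SE, adjusted p = 8.53e-05, limma). The 2 replicate 3 arrays differed for both, with a log2 signal of 9.50 and 10.70 for AT1G62510 and of 8.79 and 9.89 for AT3G21670. On replicates 1 and 2 the log2 signal was 7.12 to 7.67 for AT1G62510 and 7.46 to 7.90 for AT3G21670.

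In SCL3 OE against replicates 1 and 2, 2 of the 4 were higher and 2 were lower, beside 21.8% higher and 19.8% lower over all tested probe sets. The log2 signal of AT5G02000 was 7.05 to 7.30 in SCL3 OE, above its range on replicates 1 and 2. AT1G62510 rose by 0.89 ± 0.15 (SE, adjusted p = 0.000516, limma), and NPF6.4 had a log2 difference of -0.98 ± 0.22 (SE, limma adjusted p = 0.00433), a fall. Over the 5 named cortex probe sets the summed signal was 7770 and 8930 on replicate 3, 904 to 1162 in SCL3 OE and 707 to 876 on replicates 1 and 2. Of these sums AT1G09750 alone gave 5009 and 5440 on replicate 3, 311 to 430 in SCL3 OE and 125 to 208 on replicates 1 and 2. The neighbours AT1G62500 and AT1G62510 both belong to the lipid-transfer-like list, and whether transcripts of one reach the probes of the other was not tested. On the other side of AT1G62500, AT1G62490 was named but not tested, and AT1G62480 beyond it had 0.14 on replicate 3 and -0.11 in SCL3 OE against replicates 1 and 2, neither called.

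Among markers of other root layers, calls on replicate 3 stand beside 22% higher and 54.7% lower over all tested probe sets. Of 12 endodermis genes 3 were tested, of which 1 was higher and 2 lower on replicate 3. GSO1, a receptor kinase of the endodermal barrier, fell, with a log2 difference of -2.36 ± 0.13 (SE, limma adjusted p = 1.44e-08), and so did AT1G61590, with -1.87 ± 0.15 (SE, limma adjusted p = 3.57e-07). AT4G28100 was 0.26 ± 0.11 higher (SE), just inside the threshold (adjusted p = 0.0499, limma). The summed endodermis signal was 700.3 and 913 on replicate 3, 2949 to 3400 in SCL3 OE and 1823 to 2103 on replicates 1 and 2. The higher sum in SCL3 OE came mainly from AT1G61590, with a mean log2 signal of 11.11 there and 9.91 on replicates 1 and 2. GSO1 and AT4G28100 were not called in that comparison.

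The root hair expansins EXPA18 and EXPA7, proteins that loosen cell walls, were both lower on replicate 3, at -1.99 ± 0.16 for EXPA18 and -1.45 ± 0.17 for EXPA7 (SE). LHW, a transcription factor of the vascular cylinder, was lower too, at -1.42 ± 0.11 (SE). The adjusted p of these 3 was at most 1.1e-05 in limma. The expansins were the 2 tested of 8 listed root hair genes, and LHW the 1 tested of 9 listed stele genes. JKD, a zinc finger protein that acts with SHORT-ROOT and SCARECROW in the ground tissue, had -0.37 on replicate 3 and was not called (adjusted p = 0.0937, limma). It was the 1 tested of 7 listed ground tissue regulators. In SCL3 OE against replicates 1 and 2, JKD rose by 0.88 ± 0.17 (SE, adjusted p = 0.00159, limma) and AT1G61590 by 1.20 ± 0.13 (SE, adjusted p = 2.97e-05, limma). EXPA7 was higher there, at 0.48 (adjusted p = 0.0241, limma), while EXPA18 was lower, at -0.48 (adjusted p = 0.0172, limma), as was LHW, at -0.45 (adjusted p = 0.00279, limma). GSO1 had -0.05 and AT4G28100 had 0.17, neither called. No gene of the root cap list or of the list of leaf epidermis and cuticle had a named probe set.

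The 8 photosynthesis genes all rose on replicate 3, where 22% of all tested probe sets did, with a median of 7.00 against 5.04 for AT1G09750 and 2.95 for AT1G62500. PRK and SBPASE averaged 5.01 and 5.60 on replicates 1 and 2 and 4.97 and 6.05 in SCL3 OE, below the filter at 6.65. These 2 genes were tested only through their signal on replicate 3, so their rise there was in part selected for. RCA, the activase of Rubisco, rose by 6.42 ± 0.19, LHCB4.1 of the photosystem II antenna by 6.25 ± 0.16 and PSAN of photosystem I by 7.06 ± 0.18 (SE, adjusted p at most 1.2e-10, limma). AT1G11860 had the smallest rise of the list, 2.02 ± 0.09 (SE). In SCL3 OE against replicates 1 and 2 the median of the list was 1.17, and RCA (1.82 ± 0.17), PSAN (1.75 ± 0.16) and LHCB4.1 (1.35 ± 0.14) rose while PRK had -0.03 ± 0.35 and SBPASE 0.45 ± 0.31 (SE), neither called. AT1G09750, at 1.14, lay within this range and AT1G62500, at -0.92, below it. The part of these transcripts in the levels of the cortex genes was not tested.

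**Figure D4:**
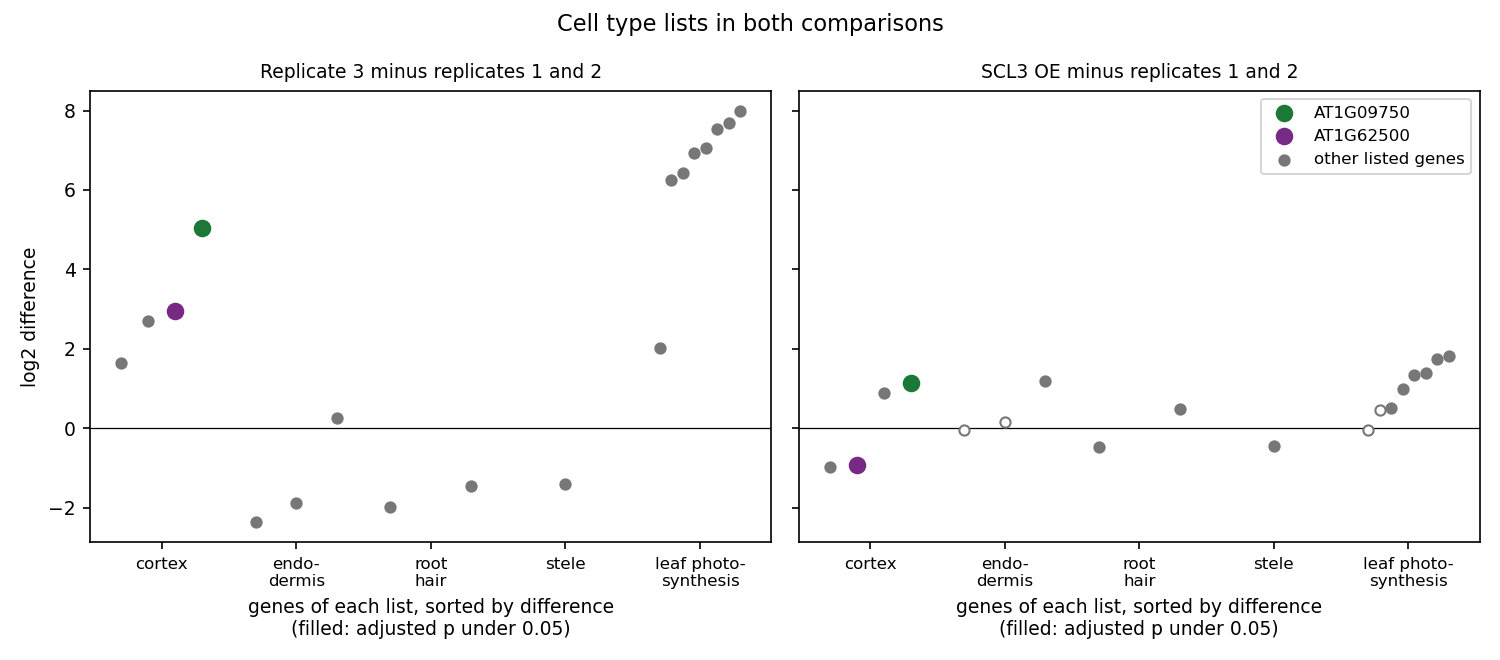
Log2 differences (y axis) of the tested genes of 5 cell type lists (x axis), for replicate 3 against replicates 1 and 2 (left) and SCL3 OE against replicates 1 and 2 (right), which share the replicates 1 and 2 arrays. Each point is a gene, filled where its adjusted p is under 0.05. All 4 cortex and all 8 photosynthesis genes are above 0 on the left, and on the right the cortex genes split into 2 above and 2 below.

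Among genes listed as aspartyl proteases, enzymes that cut proteins with a pair of aspartate residues, AT1G09750 had the highest difference on replicate 3. Of 64 listed genes, 52 were named and 36 tested. On replicate 3, 12 were higher and 16 lower than on replicates 1 and 2, with a median of -0.24, beside 22% higher, 54.7% lower and a median of -0.42 over all tested probe sets. After AT1G09750 came AT1G79720 at 3.23 and AT5G48430 at 2.62, and the lowest was AT3G51330 at -2.82 (these 3 were picked for their rank). Of the 4 with the highest mean signal, AT5G19120 (1.65 ± 0.09), AT1G66180 (1.30 ± 0.10) and AT3G54400 (0.76 ± 0.09) rose and APA1 had 0.13 ± 0.10, not called (SE, limma).

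In SCL3 OE against replicates 1 and 2, 7 of the 36 were higher and 9 lower, and the median was 0.06, beside 21.8% higher and 19.8% lower over all tested probe sets. AT1G09750 was number 2 from the top there, after AT5G48430 at 2.63 and just above AT3G51350 at 1.103, and AT5G19110 was lowest at -2.40 (picked for their rank). AT5G19120 rose by 0.72 ± 0.08 and AT1G66180 fell by 0.57 on the log2 scale (SE 0.09), while APA1 had 0.16 and AT3G54400 0.12, not called (limma).

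Of the 21 genes listed as proline-rich or lipid-transfer-like, small secreted proteins of the cell wall and apoplast, 8 were named and 6 tested, AT1G62500 among them. On replicate 3, 5 were higher and 1 lower (22% and 54.7% over all tested probe sets), with a median of 2.83, and AT1G62500 was number 3 from the top. AT2G45180 rose by 4.47 ± 0.18 and AT4G12490 by 3.42 ± 0.33, while AT4G22460 fell by 1.58 on the log2 scale (SE 0.19; AT4G12490 was chosen after its values were seen, as was AT4G12500). In SCL3 OE, 3 were higher and 3 lower than on replicates 1 and 2 (21.8% and 19.8% over all tested probe sets). AT4G22460 rose by 1.89 ± 0.17 (SE), AT2G45180 by 0.87 ± 0.16 (SE) and AT1G62510 by 0.89, while AT4G12500 fell by 1.71, AT4G12490 by 1.03 and AT1G62500 by 0.92 on the log2 scale (limma). AT4G12490 and AT4G12500 had the directions of AT1G62500, higher on replicate 3 and lower in SCL3 OE. As they were chosen with their values known, this says nothing about the list.

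**Figure D5:**
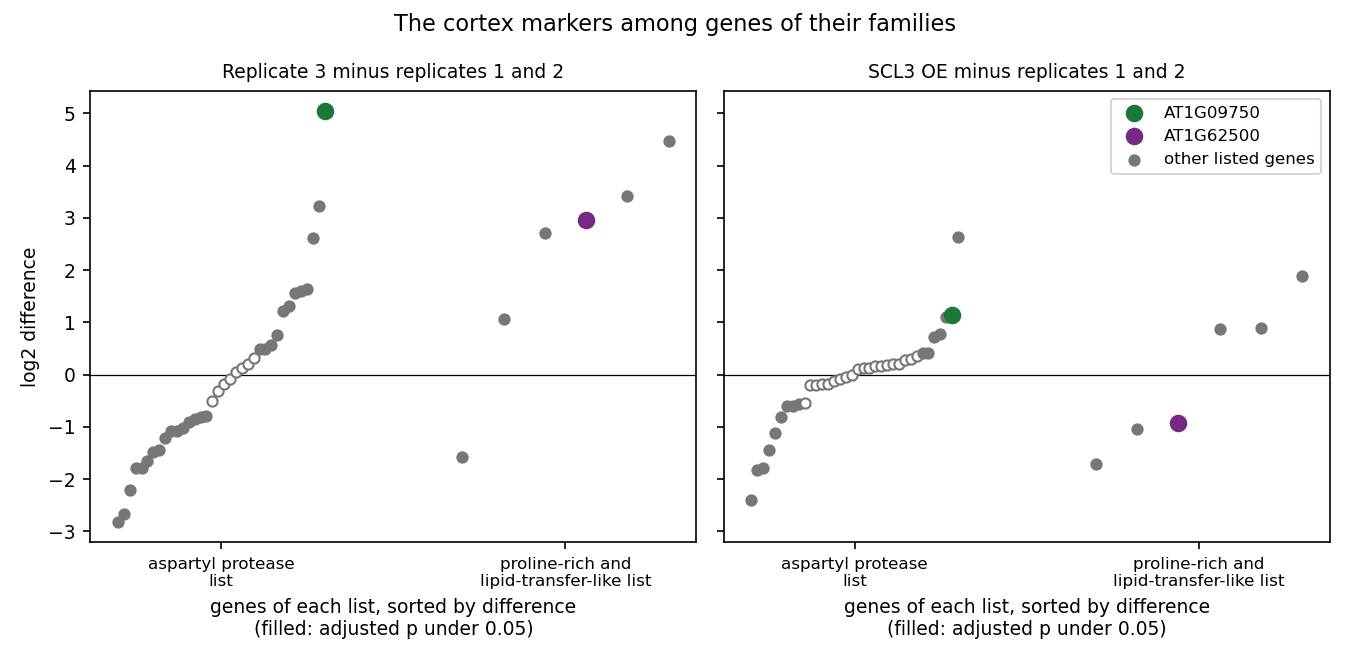
Log2 differences (y axis) of the tested genes listed as aspartyl proteases (36) and as proline-rich or lipid-transfer-like (6) on the x axis, for replicate 3 (left) and SCL3 OE (right) against the same replicates 1 and 2. Filled points have an adjusted p under 0.05 and the cortex genes are coloured. AT1G09750 is the highest of its list on the left and number 2 on the right, and AT1G62500 is number 3 of 6 on the left and number 4 on the right.

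The genes with the most similar profiles differed between the cortex genes. Likeness was measured as the root mean square difference between log2 profiles, each centred on its own mean, over 9 arrays and 7340 other probe sets of 1 gene. Nearest to AT1G09750 were AT4G01150 (0.193), AT3G47650 (0.195), ATPC1 (0.208), AT5G58330 (0.224) and AT1G74730 (0.234), against a median of 2.15 over all. Of these, AT4G01150 is the thylakoid curvature protein CURT1A, ATPC1 a subunit of the chloroplast ATP synthase and AT5G58330 NADP-dependent malate dehydrogenase. The differences of the 5 on replicate 3 were 4.63 to 4.97, and in SCL3 OE 0.74 to 1.26, against replicates 1 and 2. They were picked for likeness over these same arrays, so differences near those of AT1G09750 follow from the choice.

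Nearest to AT1G62500 were AT3G53470 (0.199), EXO (0.257), AT5G64110 (0.261), the plastid gene ccsA (0.263) and AT5G47550 (0.290), against a median of 1.64. EXO is EXORDIUM, a protein of growth that responds to brassinosteroids, and ccsA serves cytochrome c assembly in the plastid. These 5 were 2.57 to 3.30 higher on replicate 3 and had -1.05 to -0.72 in SCL3 OE, which again follows from how they were picked. AT1G62500 was number 248 in likeness to AT1G09750, with a root mean square difference of 1.08, and AT1G09750 was number 615 in likeness to AT1G62500.

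Without the replicate 3 arrays, over 7 arrays, the cortex genes were among the least alike, with AT1G62500 number 7024 of 7340 from AT1G09750 and AT1G09750 number 7191 from AT1G62500. This distance largely follows from their opposite differences in SCL3 OE given above and is no further test of them. AT3G61210 (0.0851), AT5G39080 (0.134), AT3G10020 (0.148), AT5G58330 (0.172) and ATPC1 (0.179) were then nearest to AT1G09750, so that AT5G58330 and ATPC1 were near in both. Nearest to AT1G62500 were AT4G23590 (0.123), AT5G59480 (0.139), AT1G54450 (0.147), PDF2.5, a small defensin-like protein (0.155), and AT5G47740 (0.158). All 5 of these had negative differences on replicate 3, from -2.57 to -0.37, where AT1G62500 was higher. Over all tested probe sets the median there was -0.42 and 54.7% were called lower. The 5 then nearest to AT1G09750 had 0.79 to 4.77 on replicate 3.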

How the data were processed

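The authors deposited 1 signal intensity per probe set and array, on a linear scale, and the submitters' processing notes name MAS5 and Affymetrix Expression Console 1.1. From 300 ng of RNA, biotin-labelled material was hybridised to 1 array per sample. Each array's trimmed mean was near 500.05 (2% cut at each end) and the array medians ran from 158 to 191, so no further scaling was applied. Precision is limited by the number of arrays. Probe sets were named from the platform annotation, with 13513 of 1 gene, 503 of several and 8730 unnamed here, and 13436 were matched to RefSeq's TAIR10.1 table.

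Values were analysed as log2(signal + 1), which understates the folds of dim probe sets. The 64 control probe sets were left out, and plant probe sets were tested where their mean over all arrays exceeded the 40th percentile (6.65 on the log2 scale). limma 3.58.1 in R 4.3.3 was fitted across all of them with an intensity trend, 2-sided, with Benjamini-Hochberg adjustment and an adjusted p under 0.05 as the threshold. Fits had genotype alone, or genotype with a term for replicate 3 of Col-0 and scl3 (5 residual degrees of freedom). Single values also had exact permutation tests. The script was tested on simulated data. Figures used matplotlib 3.10.9.

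Between scl3 and Col-0 arrays of the same number, deviations from group means had correlations of 0.901, 0.885 and 0.945, against -0.12 to 0.09 between SCL3 OE and either. In both genotypes the replicate 3 array stood far from the others. Centring on the group mean therefore gives the remaining arrays of both genotypes a shared deviation, opposite to that of replicate 3. High correlations follow from this alone, so they cannot decide whether arrays of the same number were paired. Arrays of different numbers were not compared, and whether a pairing holds within an array set was not tested.

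The members, the 10 lists (181 genes, 78 named, 58 tested) and the tests were chosen with earlier results of these data known. Named genes were the members, the 5 nearest profiles, all tested genes of the cortex, endodermis and ground tissue lists and up to 4 genes with the highest mean signal of other lists. Genes picked for their rank, PRK, SBPASE, AT4G12490, AT4G12500 and the neighbours of AT1G62500 were chosen after their values were seen. Alternatives were an offset of 32, other filters, quantile normalization, no trend, leaving out arrays, a replicate block and the array set as a random block.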

Additional observations from a re-analysis of the deposited data

How the results depend on the processing

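The differences of both genes on replicate 3, and of SCL3 OE against replicate 3 and against replicates 1 and 2, kept their direction and their call under every alternative that gave them a value. AT1G62500 could not be tested with the filter at the 60th percentile. Leaving out 1 array gave 4.90 to 5.21 (AT1G09750) and 2.84 to 3.08 (AT1G62500) on replicate 3, and 0.99 to 1.31 and -1.01 to -0.80 for SCL3 OE against replicates 1 and 2. Fits with group only depended on the replicate 3 arrays. With the term for replicate 3, SCL3 OE minus Col-0 was 1.14 for AT1G09750 and -1.07 for AT1G62500, with 4590 probe sets called in place of 164, and SCL3 OE minus scl3 was 1.14 and -0.77, with 5319 called in place of 260. With those arrays left out the values were 1.17 and -1.03 (5158 called) against Col-0 and 1.11 and -0.80 (5501 called) against scl3. With the array set as a random block, limma called 0 against Col-0 (250 at an unadjusted p under 0.05) and 1 against scl3, and the genes had -1.35 (AT1G09750) and -2.53 (AT1G62500) against Col-0 and -1.35 and -2.23 against scl3, not called. In that fit the correlation within an array set was 0.910. SCL3 OE is a set of its own, so its comparisons lie between sets. The cause of the differences was not tested.

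Leaving out 1 array gave 4 to 320 calls for SCL3 OE minus Col-0, where each of the 9 arrays moved the count by over 1.5 times, and 3 to 661 for SCL3 OE minus scl3, where each array but scl3 replicate 3 did so. The ranges for AT1G09750 were -1.48 to 1.17 against Col-0, turned only without Col-0 replicate 3, and -1.55 to 1.11 against scl3, turned only without scl3 replicate 3. For scl3 minus Col-0 they were -1.65 to 1.72 (AT1G09750) and -1.25 to 0.72 (AT1G62500), and -0.22 to 0.20 for AT1G09750 with the term for replicate 3, never called. Under quantile normalization that difference was -0.0098 for AT1G09750 in both fits. The difference between scl3 and Col-0 in the replicate 3 effect ran from -0.55 to 0.18 for AT1G09750 and from -0.47 to 0.017 for AT1G62500, with 61 to 304 calls over all probe sets, and with 96 calls without an intensity trend. It could not be fitted without either replicate 3 array. With the replicate number as a block, SCL3 OE minus Col-0 was -0.54 (adjusted p = 0.829, limma) for AT1G09750 and -2.05 (adjusted p = 0.194, limma) for AT1G62500, with 205 called, and the block changed no call of either gene.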
